A study of Mus musculus with 8 samples.

Results

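The macrophages of the sciatic nerve were followed through 31 genes, given by symbol and known for their expression in macrophages. All 31 were found among the 53090 genes of the tables, and 13 of them mark macrophages broadly, 4 mark resident macrophages and 14 serve phagocytosis, Fc receptor signaling, complement and the lysosome. Total RNA was sequenced from sciatic nerves taken at postnatal day 7 (P7) as 4 *Nae1* cKO samples (nerves K2, L1, L5 and L8) and 4 control samples (nerves K1, L3, L4 and L9). *Nae1* cKO mice carried a Cre transgene that is active in Schwann cells and 2 floxed alleles of *Nae1* (*Nae1* f/f), and controls were littermates without Cre (*Nae1* f/+ or f/f), called WT in the labels. Macrophages were thus not the cells targeted. Values per nerve follow this order of nerves and are CPM (expected counts per 1000000 after TMM scaling), and nothing in the sources used here states whether a library held the nerves of more than 1 animal.

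*Nae1*, which encodes a subunit of the enzyme that activates the ubiquitin-like protein NEDD8, was at 51.8 ± 6.56 CPM in *Nae1* cKO nerves and 82.9 ± 5.07 CPM in control nerves (SD, n = 4 each; p = 0.0286 in a two-sided exact permutation test, the lowest that groups of 4 can give). The gene-level count also holds reads from cells without Cre. Libraries held 12962798 to 14766770 expected counts. Nerve K2 stood apart from the other *Nae1* cKO nerves, with 1.54% of its counts on mitochondrial genes against 3.08 to 3.13% and 4.70% on the noncoding RNA 7SK against 1.94 to 2.43%. Skeletal muscle transcripts (13 genes summed) lay between 67.0 and 206 CPM in *Nae1* cKO nerves and between 137 and 2218 CPM in control nerves, with K1 and L4 highest. Counts of the 31 genes are therefore also given without K2 and without K1 and L4.

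Macrophages live in every peripheral nerve. They depend on signals through the receptor CSF1R, whose ligands CSF1 and IL-34 come from neighboring cells, and on the transcription factors PU.1 (*Spi1*) and IRF8. Those of the endoneurium, between the nerve fibers, share many transcripts with microglia, whereas those of the epineurium, the outer sheath, are rich in scavenger receptors such as CD206 (*Mrc1*), CD163 and LYVE1. Both can clear myelin and cell debris, which they recognize through complement, Fc receptors and TREM2 and digest in lysosomes.

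PU.1 binds the purine-rich core GAGGAA, and the 250 bases before the annotated start were searched for it on both strands. RefSeq start regions (GRCm38.p6) matched 22 of the 31 genes. No region was listed under the symbols *Adgre1*, *Cd14*, *Lyve1*, *Csf1r*, *Itgb2*, *Spi1*, *Tyrobp*, *C1qa* and *Csf2rb*, so these genes were not searched. GAGGAA lay in 13 of the 22 genes (59.1%), against 25.9% of the 27025 genes with a start region of the same length. It was found in 10 of 17 genes that were higher in *Nae1* cKO nerves and in 3 of 5 that did not pass the test. The longer form GAGGAAGT, which contains the core, lay in 1 of the 22 (4.55%, *C1qc*) against 2.79% of all genes, and the composite PU.1-IRF letters GGAANNGAAA in 0 of the 22 against 2.68%. A match is a description of the letters only. Of the sequences, 4 are shown, for the pair of phagocytic genes that rose further than the broad class (*Ctss*, *Mpeg1*), a complement gene (*C1qc*) and the resident marker with the most matches (*Mrc1*). They read 5′ to 3′ on the strand of the gene and end at the base before its start, and capitals mark GAGGAA or its reverse complement TTCCTC.
*Ctss*, chr3:95526536-95526785 (plus strand): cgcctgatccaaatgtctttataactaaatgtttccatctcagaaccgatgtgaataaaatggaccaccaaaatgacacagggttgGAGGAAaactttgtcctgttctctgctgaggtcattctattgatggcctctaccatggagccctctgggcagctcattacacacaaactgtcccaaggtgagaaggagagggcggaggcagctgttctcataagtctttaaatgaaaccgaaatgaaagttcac
*Mpeg1*, chr19:12460520-12460769 (plus strand): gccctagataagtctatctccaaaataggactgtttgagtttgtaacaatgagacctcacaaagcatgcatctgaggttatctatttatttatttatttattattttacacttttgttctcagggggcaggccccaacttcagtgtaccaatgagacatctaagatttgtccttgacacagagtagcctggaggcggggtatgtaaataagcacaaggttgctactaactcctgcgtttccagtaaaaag
*C1qc*, chr4:136892915-136893164 (minus strand): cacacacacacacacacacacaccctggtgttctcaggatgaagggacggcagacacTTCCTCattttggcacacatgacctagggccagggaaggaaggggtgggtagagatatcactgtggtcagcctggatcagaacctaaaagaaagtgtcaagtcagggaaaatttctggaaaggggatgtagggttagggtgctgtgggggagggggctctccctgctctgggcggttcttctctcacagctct
*Mrc1*, chr2:14229164-14229413 (plus strand): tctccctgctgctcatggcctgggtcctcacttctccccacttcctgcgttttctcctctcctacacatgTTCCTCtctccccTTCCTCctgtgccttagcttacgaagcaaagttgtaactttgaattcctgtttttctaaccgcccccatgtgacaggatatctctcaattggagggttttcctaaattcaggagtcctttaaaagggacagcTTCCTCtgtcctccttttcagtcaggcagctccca

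Most macrophage genes were higher in *Nae1* cKO nerves, and unevenly so. Of the 31, 21 rose (adjusted p under 0.05, edgeR's quasi-likelihood test over 17090 genes), 0 fell (0 also at an unadjusted p under 0.05, with DESeq2 and with limma-voom) and 10 did not pass. By comparison, 14.1% of all genes tested were higher and 12.3% were lower. A rise of more than 2-fold was reached by 9 members, beside 4.25% of all genes. The median log2 fold change was 0.83 over the members and 0.0066 over all genes tested. With library totals in place of TMM these medians were 0.99 and 0.16, a shift that all genes share, and 75.5% of the calls over all genes were then higher in place of 53.5%. Every *Nae1* cKO nerve lay above every control nerve for 21 members (14.9% of all genes). In bulk RNA of this kind, more macrophages and more RNA per macrophage cannot be told apart. Without K2, 20 members rose, and without the control nerves K1 and L4, 15 did.

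**Figure D1:**
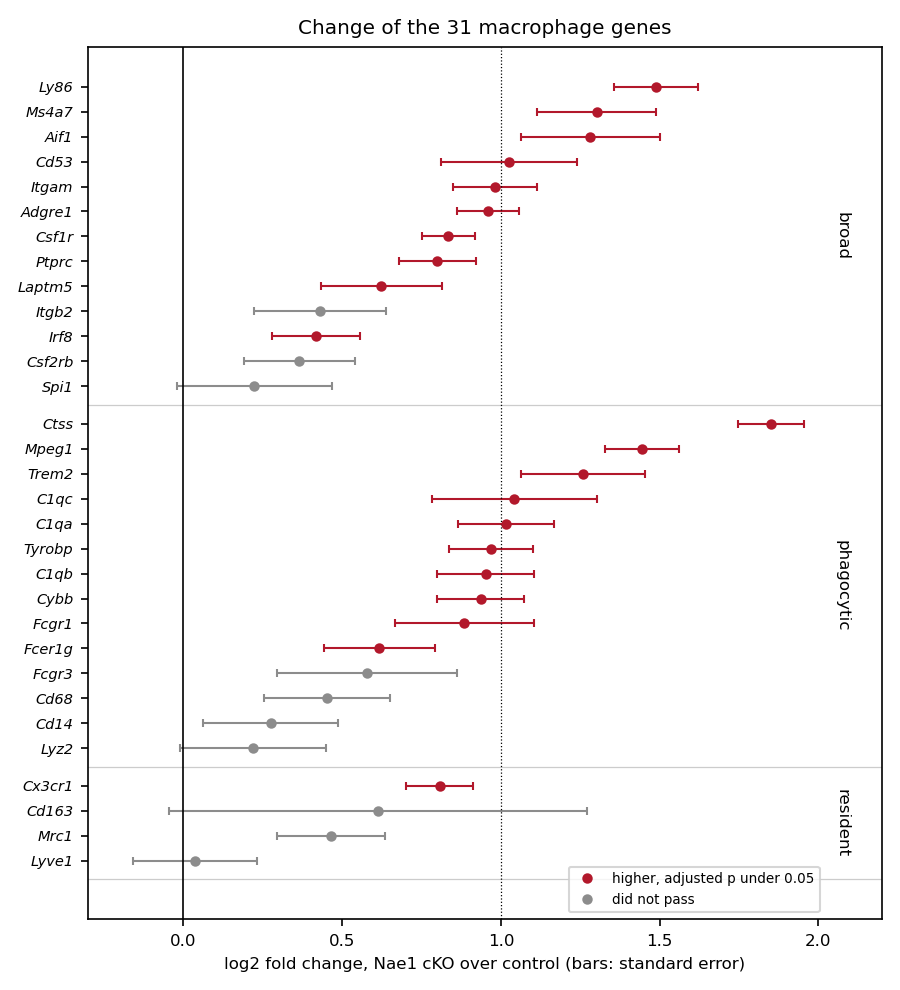
Log2 fold change of each of the 31 genes, *Nae1* cKO over control nerves (points) with its standard error (bars), by class and by size, where red marks an adjusted p under 0.05 and the dotted line a 2-fold change. All 31 points lie above 0, and 21 are red: 10 of 13 broad genes, 10 of 14 phagocytic genes and 1 of 4 resident genes.

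Among the growth factor receptors and lineage factors, *Csf1r* and *Irf8* rose while *Spi1* and *Csf2rb* did not pass. *Csf1r* (ENSMUSG00000024621.15), the receptor for CSF1 and IL-34, was at 104, 104, 112 and 109 CPM in *Nae1* cKO nerves, against 55.4, 54.5, 65.6 and 65.2 CPM in control nerves. The groups were far apart (log2 fold change 0.83, SE 0.083, adjusted p = 1.93e-05). *Spi1*, which encodes PU.1, was at 2.31, 2.93, 2.86 and 2.09 CPM in *Nae1* cKO nerves, against 2.26, 1.45, 2.94 and 2.07 CPM in control nerves. Its groups overlapped throughout (log2 fold change 0.22, SE 0.24, adjusted p = 0.548), at only 20 to 42 counts per nerve, where a change of this size was not detectable. *Irf8* averaged 7.55 ± 0.699 CPM in *Nae1* cKO nerves and 5.65 ± 0.446 CPM in control nerves (SD, n = 4 each; log2 fold change 0.42, adjusted p = 0.0424). It did not overlap between groups, but its call was lost when any single nerve was left out (adjusted p from 0.0537 to 0.13, log2 fold change from 0.37 to 0.46) or K1 and L4 together (adjusted p = 0.184). *Csf2rb*, the chain shared by the receptors for GM-CSF, IL-3 and IL-5, was at 5.90, 4.46, 4.15 and 4.74 CPM in *Nae1* cKO nerves, against 3.73, 3.19, 3.73 and 4.29 CPM in control nerves. Only the lowest *Nae1* cKO nerve fell within the control range, and the gene did not pass (log2 fold change 0.36, SE 0.17, adjusted p = 0.15).

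The surface and cytoplasmic markers of macrophages rose together, 7 of 7. *Adgre1* (ENSMUSG00000004730.14, chromosome 17, 57358691 to 57483527, plus strand), the F4/80 antigen, was at 37.6, 34.3, 33.6 and 30.5 CPM in *Nae1* cKO nerves, against 15.8, 18.4, 17.7 and 18.1 CPM in control nerves (log2 fold change 0.96, SE 0.098, adjusted p = 2.19e-05). The lowest mutant nerve stood well above the highest control. *Aif1*, the calcium-binding protein IBA1 used to stain macrophages, was at 5.67, 6.69, 5.71 and 4.88 CPM in *Nae1* cKO nerves, against 1.39, 2.53, 2.73 and 2.78 CPM in control nerves (log2 fold change 1.28, SE 0.22, adjusted p = 0.001). Control K1 was the lowest of all 8 nerves, and without it the log2 fold change was 1.09 (adjusted p = 0.0018). The steepest rise in the class was that of *Ly86*, which encodes MD-1, the partner of a Toll-like receptor homolog. It was at 12.99, 12.7, 11.6 and 10.7 CPM in *Nae1* cKO nerves, against 4.02, 4.34, 4.66 and 4.05 CPM in control nerves (log2 fold change 1.49, SE 0.13, adjusted p = 7.99e-06). *Ms4a7*, a membrane protein of the MS4A family, and *Cd53*, a tetraspanin of leukocytes, also rose more than 2-fold (log2 fold change 1.30 and 1.03). *Ptprc*, the CD45 phosphatase of all leukocytes, rose less (0.80, adjusted p = 0.000393). The call of *Cd53* was lost without K1 and L4 together (adjusted p = 0.0628).

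*Laptm5*, a lysosomal membrane protein of blood-derived cells, was the member of this group least separated between genotypes. It was at 12.2, 16.1, 23.0 and 22.4 CPM in *Nae1* cKO nerves, against 9.79, 12.6, 12.7 and 12.8 CPM in control nerves, so that the mutant nerve K2 lay within the control range. Its rise passed the test (log2 fold change 0.62, SE 0.19, adjusted p = 0.0306). The call was lost without L5, L8, K1, L3, L4 or L9 (adjusted p = 0.0962, 0.0933, 0.0902, 0.0543, 0.0596 and 0.0549, log2 fold change from 0.50 to 0.65) or without K1 and L4 together (adjusted p = 0.208) and was kept without K2 (adjusted p = 0.00124). The chains of the complement receptor integrin also differed. *Itgam*, the alpha chain CD11b, averaged 11.35 ± 0.818 CPM in *Nae1* cKO nerves and 5.74 ± 0.6 CPM in control nerves (SD, n = 4 each; log2 fold change 0.98, adjusted p = 0.000177). *Itgb2*, the beta chain CD18 that it pairs with, was at 4.40, 3.55, 5.17 and 3.97 CPM in *Nae1* cKO nerves, against 4.09, 2.97, 3.30 and 2.30 CPM in control nerves. Those values overlapped and did not pass (log2 fold change 0.43, SE 0.21, adjusted p = 0.154). The difference between the chains was not tested.

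**Figure D2:**
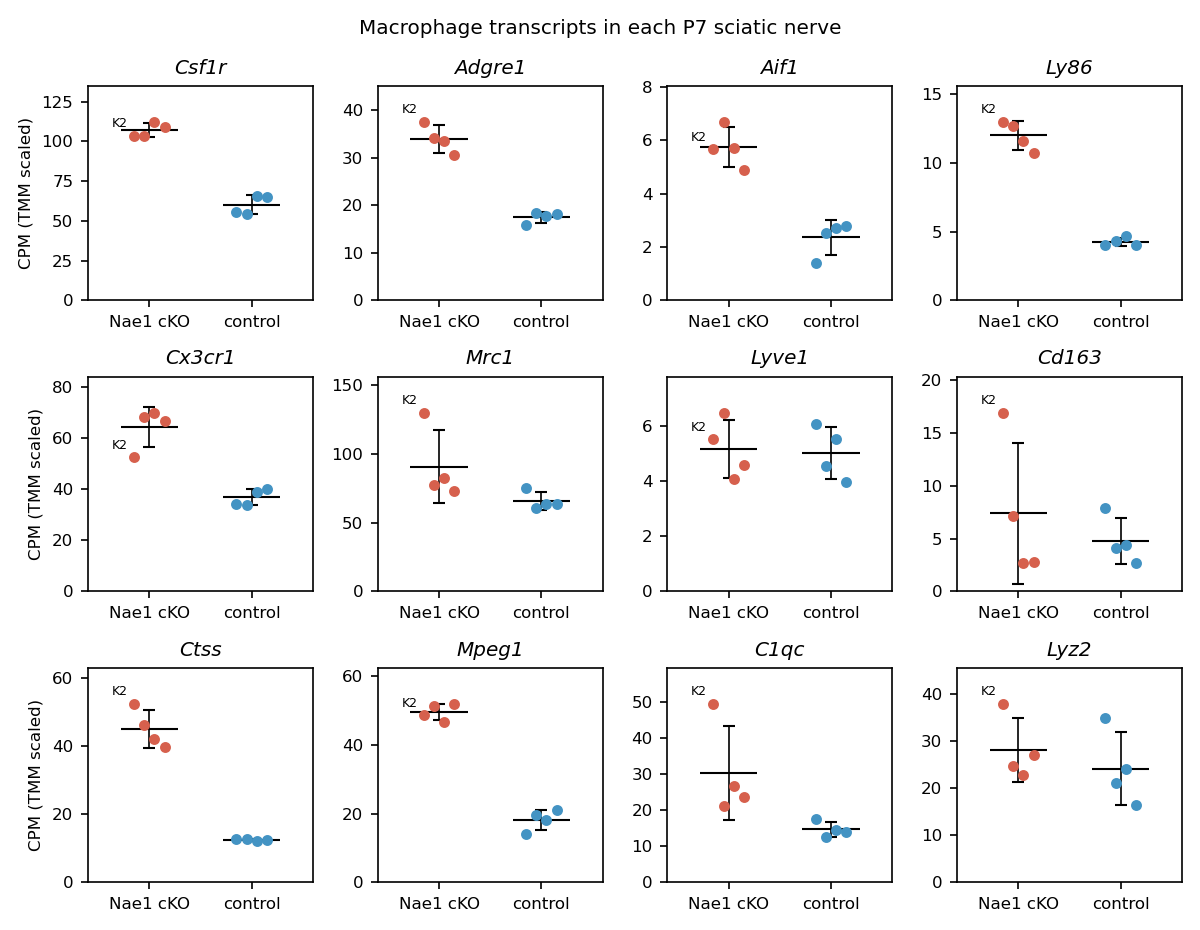
CPM of 12 macrophage genes in each P7 sciatic nerve (red, *Nae1* cKO; blue, control), with the mean of 4 nerves (line) and its SD (bar), and nerve K2 labeled. *Csf1r*, *Adgre1*, *Aif1*, *Ly86*, *Cx3cr1*, *Ctss* and *Mpeg1* separate the genotypes, whereas *Lyve1* and *Lyz2* overlap and K2 is the highest nerve for *Mrc1*, *Cd163* and *C1qc*.

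The resident class split. *Cx3cr1*, the fractalkine receptor that microglia and endoneurial macrophages carry, rose with the broad markers: it was at 52.7, 68.4, 69.96 and 66.7 CPM in *Nae1* cKO nerves, against 34.3, 34.0, 38.8 and 40.3 CPM in control nerves (log2 fold change 0.81, SE 0.1, adjusted p = 0.000138). The scavenger-type receptors did not pass the main test. *Mrc1*, the mannose receptor CD206, was at 130, 77.5, 82.6 and 72.6 CPM in *Nae1* cKO nerves, against 74.8, 60.4, 63.8 and 63.6 CPM in control nerves. K2 lay far above all other nerves and L8 lay just under the highest control (log2 fold change 0.46, SE 0.17, adjusted p = 0.0692). Without K2 the log2 fold change of *Mrc1* was 0.23 (adjusted p = 0.0604), and without L8 it was 0.56 and passed (adjusted p = 0.04). *Mrc1* did not pass in 15 of 21 alternatives and passed as higher in the rest, among them DESeq2 and library totals. *Lyve1*, a hyaluronan receptor also made by lymphatic endothelium, was at 5.52, 6.48, 4.08 and 4.60 CPM in *Nae1* cKO nerves, against 6.06, 4.56, 5.52 and 3.97 CPM in control nerves. The genotypes were intermingled (log2 fold change 0.037, SE 0.2, adjusted p = 0.915), and the sign turned without K2, L1, L3 or L9 (log2 fold change −0.0042, −0.09, −0.01 and −0.061).

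*Cd163*, the scavenger receptor for hemoglobin bound to haptoglobin, varied more among nerves of 1 genotype than between genotypes. It was at 16.9, 7.11, 2.72 and 2.79 CPM in *Nae1* cKO nerves, against 7.89, 4.13, 4.45 and 2.70 CPM in control nerves. The 2 nerves named K were the highest of their groups. The log2 fold change was 0.61 with an SE of 0.66 (adjusted p = 0.553), and −0.2 without K2 (adjusted p = 0.788).

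Every one of the 3 genes of C1q, the recognition molecule that opens the classical complement cascade, was higher in *Nae1* cKO nerves. *C1qa* was at 60.1, 37.6, 36.7 and 39.5 CPM in *Nae1* cKO nerves, against 23.5, 21.3, 21.1 and 20.1 CPM in control nerves (log2 fold change 1.02, SE 0.15, adjusted p = 0.00042). *C1qb* was at 18.7, 12.6, 13.9 and 13.3 CPM in *Nae1* cKO nerves, against 7.82, 7.31, 8.54 and 6.52 CPM in control nerves (log2 fold change 0.95, SE 0.15, adjusted p = 0.000627). *C1qc* was at 49.6, 21.1, 26.9 and 23.8 CPM in *Nae1* cKO nerves, against 17.6, 12.6, 14.6 and 13.98 CPM in control nerves (log2 fold change 1.04, SE 0.26, adjusted p = 0.0149). No mutant nerve reached into the control range, and K2 was the highest nerve for each chain. Without K2 the log2 fold change was 0.81 for *C1qa* (adjusted p = 1.43e-05) and 0.69 for *C1qc* (adjusted p = 0.00106). *C1qc* did not pass without both K1 and L4 (adjusted p = 0.0811). Scaled to gene length, *C1qa* had the highest level of the 31 genes, at 34.5 ± 3.52 TPM (transcripts per 1000000) in *Nae1* cKO nerves and 15.9 ± 0.819 TPM in control nerves (SD, n = 4 each), and *Csf2rb* the lowest, at 0.75 ± 0.12 TPM in *Nae1* cKO nerves and 0.535 ± 0.104 TPM in control nerves.

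The adaptors that relay Fc receptor and TREM2 signals rose, and the receptors were mixed. *Tyrobp*, the adaptor DAP12, was at 16.4, 11.9, 13.4 and 13.8 CPM in *Nae1* cKO nerves, against 7.30, 6.73, 6.67 and 7.63 CPM in control nerves (log2 fold change 0.97, SE 0.13, adjusted p = 0.000195). *Trem2*, a lipid-sensing receptor that signals through DAP12, was at 14.3, 9.75, 11.2 and 9.55 CPM in *Nae1* cKO nerves, against 4.16, 6.15, 3.52 and 4.85 CPM in control nerves (log2 fold change 1.26, SE 0.2, adjusted p = 0.000508). Receptor and adaptor thus separated the genotypes in every nerve. *Fcer1g*, the gamma chain of activating Fc receptors, was at 5.82, 5.36, 5.71 and 4.32 CPM in *Nae1* cKO nerves, against 3.21, 4.13, 3.52 and 2.94 CPM in control nerves (log2 fold change 0.62, SE 0.17, adjusted p = 0.0202). The call was lost without L5, K1 or L9 (adjusted p = 0.0614, 0.0578 and 0.0543) and without K1 and L4 together (adjusted p = 0.147). *Fcgr1*, the high-affinity IgG receptor, had 48 to 61 counts in *Nae1* cKO nerves and 18 to 32 counts in control nerves and rose (log2 fold change 0.89, adjusted p = 0.00984), a call lost without K1 and L4 together (log2 fold change 0.62). *Fcgr3*, a low-affinity IgG receptor, was at 21.1, 8.99, 8.97 and 9.13 CPM in *Nae1* cKO nerves, against 9.79, 7.38, 8.03 and 6.91 CPM in control nerves. K2 lay far above the other 3 *Nae1* cKO nerves, and the gene did not pass (log2 fold change 0.58, SE 0.28, adjusted p = 0.165; without K2, 0.16, adjusted p = 0.454).

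Lysosomal and killing genes held both the largest rise of the 31 and several of the smallest. *Ctss* (ENSMUSG00000038642.10, chromosome 3, 95526786 to 95556403, plus strand), the lysosomal protease cathepsin S, was at 52.4, 46.3, 42.0 and 39.6 CPM in *Nae1* cKO nerves, against 12.7, 12.7, 12.3 and 12.3 CPM in control nerves. The mutant nerves lay at more than 3 times the control level (3.61-fold, log2 fold change 1.85, SE 0.1, adjusted p = 2.66e-07). *Mpeg1*, the pore-forming protein perforin-2 that attacks engulfed bacteria, averaged 49.5 ± 2.39 CPM in *Nae1* cKO nerves and 18.2 ± 2.96 CPM in control nerves (SD, n = 4 each; log2 fold change 1.45, adjusted p = 3.53e-06). *Cybb*, the catalytic subunit of the phagocyte NADPH oxidase, was at 13.3, 12.8, 11.5 and 10.7 CPM in *Nae1* cKO nerves, against 5.92, 6.30, 7.39 and 5.56 CPM in control nerves (log2 fold change 0.94, SE 0.14, adjusted p = 0.000321). Its genotypes did not overlap.

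*Cd68*, *Lyz2* and *Cd14* did not pass. *Cd68*, a glycoprotein of the lysosomal membrane and the usual stain for phagocytic macrophages, was at 3.73, 4.25, 4.01 and 5.92 CPM in *Nae1* cKO nerves, against 2.63, 3.69, 3.52 and 3.26 CPM in control nerves. The groups did not overlap, but K2 exceeded control L3 by little (log2 fold change 0.45, SE 0.2, adjusted p = 0.118, 36 to 85 counts per nerve). *Lyz2*, the lysozyme of myeloid cells, was at 37.9, 24.8, 22.8 and 27.0 CPM in *Nae1* cKO nerves, against 34.8, 21.1, 24.0 and 16.5 CPM in control nerves (log2 fold change 0.22, SE 0.23, adjusted p = 0.533). Here too the K nerves were the highest of their groups. *Cd14*, the coreceptor for lipopolysaccharide, was at 3.81, 3.13, 3.60 and 2.51 CPM in *Nae1* cKO nerves, against 2.995, 2.24, 2.22 and 3.34 CPM in control nerves (log2 fold change 0.27, SE 0.21, adjusted p = 0.387). Close copies could share reads with 3 members: *Lyz1* lay at no more than 0.149 CPM, *Fcgr4* lay at no more than 0.476 CPM, and *Csf2rb2* and *Fcgr2b* did not pass (log2 fold change 0.80 and 0.23, adjusted p = 0.188 and 0.578).

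**Figure D3:**
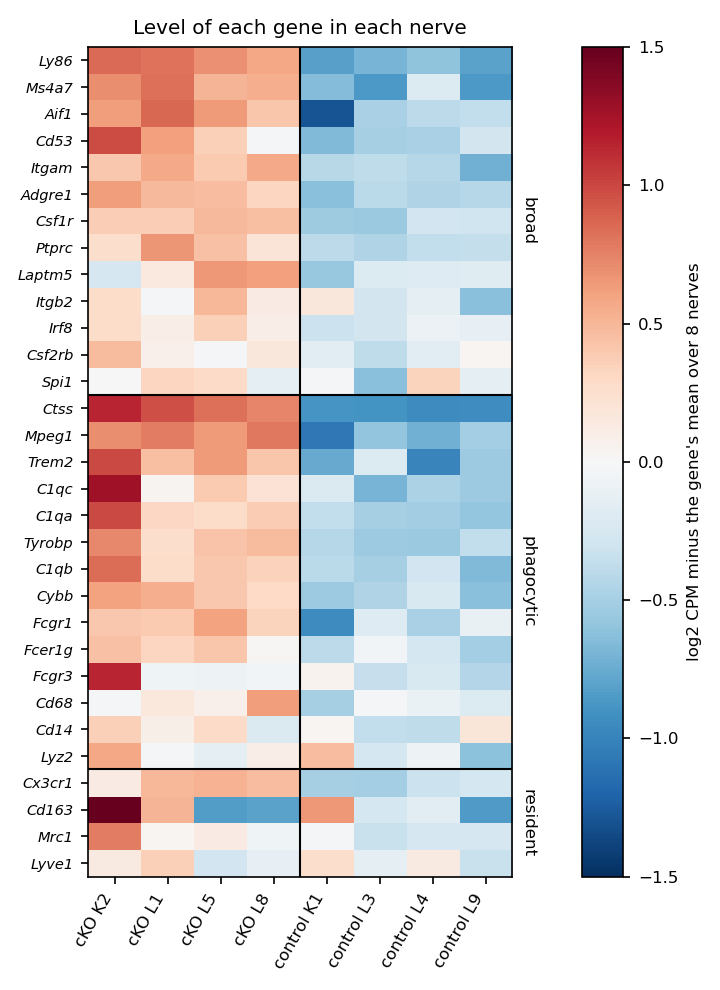
Log2 CPM of each of the 31 genes in each nerve, minus the gene's mean over the 8 nerves, with *Nae1* cKO nerves at the left and control nerves at the right. Colors beyond the ends of the scale take the end color. Most broad and phagocytic genes are red at the left and blue at the right. Colors mix within a genotype for *Laptm5*, *Itgb2*, *Spi1*, *Csf2rb*, *Cd53*, *Cd68*, *Fcgr3*, *Lyz2* and *Cd14*, some only faintly. The resident genes *Cd163*, *Lyve1* and *Mrc1* mix colors as well.

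The classes were compared by their mean log2 CPM in each nerve. The 13 broad genes averaged 3.43 ± 0.07 in *Nae1* cKO nerves and 2.62 ± 0.1 in control nerves (SD, n = 4 each), a difference of 0.81. The 14 phagocytic genes averaged 3.77 ± 0.2 in *Nae1* cKO nerves and 2.90 ± 0.026 in control nerves, a difference of 0.87. The 4 resident genes averaged 4.34 ± 0.4 in *Nae1* cKO nerves and 3.95 ± 0.23 in control nerves, a difference of 0.39. The resident mean minus the broad mean was 1.38, 1.02, 0.56 and 0.69 in *Nae1* cKO nerves, against 1.71, 1.28, 1.24 and 1.09 in control nerves, so that only K2 lay within the control range.

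To ask which genes moved differently from the broad class, each nerve's broad mean was subtracted from the log2 CPM of every gene and the remainder was compared with limma. In this fit 2.07% of all 17090 genes were higher and 77.8% were lower, because the broad class rose and most genes did not. Among the 18 resident and phagocytic genes, 2 rose further than the broad class. These were *Ctss*, by 1.02 on the log2 scale (SE 0.12, adjusted p = 1.25e-06), and *Mpeg1*, by 0.64 (SE 0.13, adjusted p = 0.000258), and both calls held in all 16 alternatives. *Cx3cr1* did not pass in either direction against the broad class (−0.01, SE 0.12, adjusted p = 0.938), nor did *C1qa*, *C1qb* and *C1qc* (between 0.12 and 0.17, adjusted p from 0.297 to 0.558).

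Relative to the broad class, 3 of the 18 were lower, a share below that of all genes. *Lyve1* stood 0.77 lower on the log2 scale (relative log2 fold change −0.77, SE 0.2, adjusted p = 0.0018), a call that held in all 16 alternatives. The median of all genes tested was −0.81 in this fit, so *Lyve1* lay close to the typical gene. *Mrc1* stood lower by less (−0.38, SE 0.16, adjusted p = 0.0404), and its call was lost in 8 of the 16 (adjusted p up to 0.159), among them those without L1, L5, L8, K1, L3 or L9. *Cd14* (−0.54, SE 0.22, adjusted p = 0.0317) was lost in 5 (up to 0.0969). The number of lower members was 5 without K2, and 1 without L1 or without K1. *Lyz2* missed the threshold by little (−0.56, SE 0.24, adjusted p = 0.0524). It did not pass in 9 of the 16 alternatives and passed as lower in the rest. *Cd163* was too variable to place (−0.51, SE 0.66, adjusted p = 0.502) and did not pass in 15 of the 16.

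Other macrophage genes were read from lists that the 31 do not hold. For comparison, 14.1% of all genes tested were higher and 12.3% were lower by edgeR. Of 14 genes shared by microglia and endoneurial macrophages, 12 were tested, 10 rose and 0 fell (edgeR; 0 lower at an unadjusted p under 0.05, with DESeq2 and with limma-voom; median log2 fold change 0.95). Among them was *Fcrls*, an Fc receptor-like protein of microglia (45.5 ± 3.79 CPM in *Nae1* cKO nerves and 18.4 ± 1.74 CPM in control nerves, SD, n = 4 each; log2 fold change 1.30, adjusted p = 2.57e-06). *Gpr34*, a lysophosphatidylserine receptor (1.18), and *Olfml3*, a secreted protein of microglia (0.90), rose as well. The number that rose was 7 without K1 and L4 and 10 without K2. The cells that the transcripts of this list came from, *Olfml3* among them, were not tested.

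Of 18 further genes of resident macrophages, 10 were tested, and 0 rose while 1 fell (edgeR; 1 higher and 1 lower at an unadjusted p under 0.05, and 0 higher and 1 lower with DESeq2 and with limma-voom), with a median log2 fold change of 0.23. *Stab1*, a scavenger receptor that endothelium can also express, was at 140 ± 30.5 CPM in *Nae1* cKO nerves and 122 ± 4.88 CPM in control nerves (SD, n = 4 each; log2 fold change 0.20, adjusted p = 0.275). *Pf4*, a chemokine (0.54, adjusted p = 0.117), and *Folr2*, a folate receptor (0.44, adjusted p = 0.355), did not pass either. *F13a1*, *Cbr2*, *Siglec1* and *Clec10a*, singled out after their values were seen, lay between 0.14 and 0.29 (adjusted p from 0.613 to 0.854), with K2 the highest of the 8 nerves for *F13a1*, *Cbr2* and *Siglec1*. *Maf*, a transcription factor of resident macrophages that is not limited to them, was lower (log2 fold change −0.46, SE 0.1, adjusted p = 0.00611). With library totals, *Pf4* and *Stab1* passed as higher (0.68 and 0.35, adjusted p = 0.0352 and 0.0262) and *Maf* no longer passed (−0.30, adjusted p = 0.0531).

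**Figure D4:**
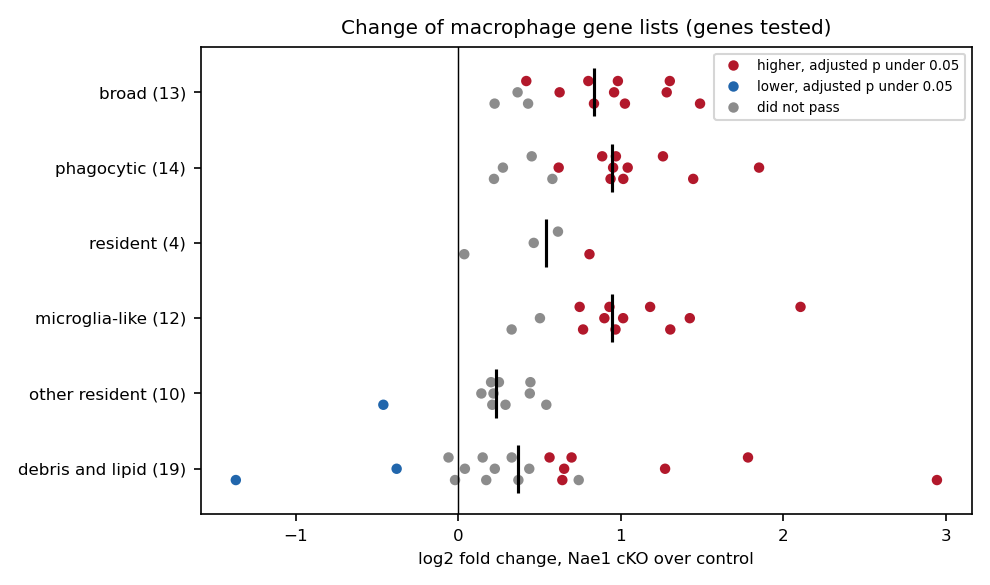
Log2 fold change, *Nae1* cKO over control nerves, of each tested gene (points) in the 3 classes of the 31 genes and in 3 further macrophage lists, with the number of genes tested in brackets and the median as a vertical line. The microglia-like list lies with the broad and phagocytic genes (medians 0.95, 0.83 and 0.94), and the other resident list lies nearer to 0 (median 0.23).

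Genes for handling debris and lipid changed in both directions: of 22, 19 were tested, 7 rose and 2 fell (median log2 fold change 0.37), or 11 and 1 with library totals. The shares over all genes tested were 14.1% higher and 12.3% lower by edgeR with TMM. *Axl*, a receptor kinase that binds dying cells, was at 237 ± 17.1 CPM in *Nae1* cKO nerves and 97.9 ± 6.6 CPM in control nerves (SD, n = 4 each; log2 fold change 1.27, adjusted p = 6.65e-07). *Spp1*, the secreted phosphoprotein osteopontin (1.78, adjusted p = 1.6e-05), and *Plin2*, a lipid droplet protein (0.65, adjusted p = 0.000107), rose as well. *Cd9*, a tetraspanin that Schwann cells express at high levels, fell by 1.37 on the log2 scale (adjusted p = 6.97e-06). *Gpnmb*, a lysosomal glycoprotein of lipid-laden macrophages singled out after its values were seen, rose most (2.94, SE 0.41, adjusted p = 0.000391), at 15.1, 4.53, 7.00 and 7.95 CPM in *Nae1* cKO nerves, against 1.31, 0.507, 1.36 and 1.27 CPM in control nerves. Several genes of this list are also expressed by Schwann cells and fibroblasts, so the cell of origin was not tested.

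Both ligands of CSF1R passed the test as higher, with calls that depended on single nerves. *Il34* was at 39.9, 18.1, 20.1 and 21.1 CPM in *Nae1* cKO nerves, against 14.5, 11.9, 14.8 and 10.3 CPM in control nerves (log2 fold change 0.94, SE 0.25, adjusted p = 0.0179), with K2 the highest. *Csf1* was at 14.6, 12.5, 12.1 and 13.2 CPM in *Nae1* cKO nerves, against 10.9, 10.2, 10.3 and 6.75 CPM in control nerves (log2 fold change 0.46, SE 0.15, adjusted p = 0.0435). No mutant nerve fell within the control range for either ligand. The call of *Il34* was lost without L3 or L9 (adjusted p = 0.0532 and 0.0518) and without K1 and L4 together (adjusted p = 0.0645). That of *Csf1* was lost in 11 of 21 alternatives, among them without any 1 nerve other than K1 (adjusted p from 0.0611 to 0.0895, log2 fold change from 0.32 to 0.50) and without K1 and L4 together (adjusted p = 0.0611). Of the 8 genes of the colony-stimulating factor pathway, 5 were tested and 3 rose, beside 14.1% of all genes tested. The third was *Il3ra*, the alpha chain of the IL-3 receptor (0.92, adjusted p = 0.0113). Without K1 and L4, which left fewer control nerves, the count was 0. The log2 fold changes were then 1.15 for *Il34*, 0.62 for *Csf1* and 0.63 for *Il3ra* (adjusted p = 0.157 for *Il3ra*). *Csf2*, the gene of GM-CSF, was at 0 counts in all 8 nerves, which allows up to 3 counts per nerve.

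Markers of other cells were read for the same nerves, and their part in the values above was not tested. Of 10 monocyte genes, 5 were tested and 3 rose, beside 14.1% of all genes tested. *Fn1* (log2 fold change 0.55, adjusted p = 0.0124) averaged 1108 CPM in *Nae1* cKO nerves and 756 CPM in control nerves. Its cell of origin was not tested. *Itgal* (1.06, adjusted p = 0.03) lost its call in 10 of 21 alternatives. The third was *Ccr2*, the chemokine receptor of inflammatory monocytes. *Ccr2* was at 4.48, 13.3, 11.6 and 6.69 CPM in *Nae1* cKO nerves, against 4.31, 3.98, 3.52 and 4.53 CPM in control nerves (log2 fold change 1.15, adjusted p = 0.0159). Its call was lost with limma-voom (adjusted p = 0.0503) and without L4 (adjusted p = 0.0551). Without K1 and L4 together, which left fewer control nerves, 0 of the 5 monocyte genes passed as higher. The log2 fold changes of *Ccr2*, *Fn1* and *Itgal* were then 1.08, 0.54 and 1.28 (adjusted p = 0.154, 0.112 and 0.085). *Ly6c2*, a defining marker of inflammatory monocytes, lay at no more than 0.438 CPM in any nerve. None of 10 neutrophil genes passed the filter on low counts (summed 0.836 to 4.18 CPM in *Nae1* cKO nerves and 1.83 to 7.89 CPM in control nerves), and *Ly6g* was at 0 in all nerves. Of T and NK cell genes, 1 of 12 was tested and rose (*Klrb1c*, 2.29, adjusted p = 0.00176), with summed levels of 2.93 to 4.89 CPM in *Nae1* cKO nerves and 1.51 to 3.36 CPM in control nerves. By edgeR 0 of 5 tested mast cell genes and 0 of 2 tested B cell genes passed (1 and 0 at an unadjusted p under 0.05, and 0 in each with DESeq2 and with limma-voom). All 5 mast cell genes lay above 0, with a median log2 fold change of 0.75. With library totals *Mcpt4* passed as higher (1.05, adjusted p = 0.0353). Erythroid genes (0 of 5 tested changed by edgeR, 0 at an unadjusted p under 0.05, 0 with DESeq2 and with limma-voom) say little of the blood content, since the library kit also depletes globin mRNA and *Hba-a2*, *Hbb-bs* and *Hbb-bt* are among them. Of 4 tested dendritic cell genes only *Zbtb46* changed, and it was lower (−0.43, adjusted p = 0.00895), a call lost with library totals (−0.27, adjusted p = 0.108) and without K1 and L4 (−0.33, adjusted p = 0.12).

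Among the resident structural cells, 2 of 9 Schwann cell genes were higher and 3 lower. Over all genes tested, 14.1% were higher and 12.3% lower. Of 10 fibroblast genes, 4 were higher (*Lum*, 1.06, *Dcn*, 0.70, and *Pdgfra*, 0.91, among them) and 0 lower. Only 6 of these 10 lay above 0, with a median log2 fold change of 0.17 and a lowest of −0.53. In endothelium, 4 of 10 genes were lower, *Kdr* by most (−0.53). The endothelial count was 2 with library totals, a setting in which 1255 of all genes were lower in place of 2099. Without K1 and L4, 1 Schwann cell gene was higher and 2 lower, 2 fibroblast genes were higher (*Pdgfra* did not pass, adjusted p = 0.0514) and 1 endothelial gene was lower. Of 13 skeletal muscle genes, 4 were lower by edgeR, 12 by DESeq2 and 0 by limma-voom, and 0 by edgeR without K2. With K1 and L4 left out, the nerves with the most muscle RNA, the rise of *Csf1r*, *Adgre1*, *Ly86*, *Aif1*, *Itgam*, *Ms4a7*, *Cx3cr1*, *C1qa*, *C1qb*, *Tyrobp*, *Trem2*, *Ctss* and *Mpeg1* still passed, and these 13 were the members whose call was kept in all 21 alternatives.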

How the data were processed

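For each of 8 sciatic nerve libraries (TruSeq Stranded Total RNA, Ribo-Zero Globin, which removes ribosomal and globin RNA) the authors deposited an RSEM gene table of expected counts (estimated, unscaled), TPM and FPKM, the last 2 corrected for depth and for gene length. According to the submitters' processing notes GRCm38, STAR, RSEM and FastQC 0.11.5 were used, while the paper's methods name TopHat, mm10 and Cuffdiff, which need aligned reads and were not repeated. The strand setting and the release of the annotation are not stated in what was read here. Positions came from GENCODE vM21, which matched 52403 of the 53090 gene identifiers. A second row named *Itgam*, with 0 counts in all nerves, was not used.

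Expected counts were rounded, filtered by filterByExpr (17090 genes), scaled by TMM and compared with edgeR 4.0.16 (quasi-likelihood, robust; R 4.3.3), Benjamini-Hochberg adjusted over all genes. Changes relative to the broad class were tested with limma 3.58.1 on log2 CPM (prior count 2). The scripts were tested on simulated data. The common biological coefficient of variation was 0.158. Replicates are separate samples by label, so p-values measure the spread between nerves. No pair of nerves agreed within sampling noise (chi-square per gene 4.08 to 56.6).

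The members and lists were chosen with earlier results of these data known. Full values per nerve were given for 19 preselected members and for those that did not pass, and of other lists up to 4 genes with the smallest adjusted p, of which 1 is not reported here. Alternatives were DESeq2 1.42.0, its size factors in edgeR, limma-voom, library totals, other filters (none, at least 10 counts in every nerve), limma on log2(TPM + 1), log2(TPM + 0.1) and log2(FPKM + 1), a fit without mitochondrial and abundant noncoding genes, the letter that opens each nerve's name (whose meaning is not given), K1 and L4 left out, and each nerve left out in turn.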

Additional observations from a re-analysis of the deposited data

Results flagged for a closer look

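In 4 of 64 sets of 4 nerves, 1 nerve lay far from the other 3, and chance alone is expected to give about 1 in 20. The *Nae1* cKO nerve K2 did so for *Fcgr3*, at 21.05 CPM against 8.97 to 9.13 CPM in the other *Nae1* cKO nerves, and for *C1qa*, at 60.08 CPM against 36.7 to 39.5 CPM. Control nerve K1 did so for *Laptm5*, at 9.789 CPM against 12.6 to 12.8 CPM in the other control nerves, and control nerve L9 for *Itgam*, at 4.847 CPM against 5.95 to 6.15 CPM.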

How the results depend on the processing

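Of 651 values (31 genes, 21 alternatives each), 593 kept their direction and side of the threshold, 42 lost the call, 11 gained one and 5 changed sign: *Cd163* without K2 (−0.20; range −0.20 to 0.96 with 1 nerve left out), and *Lyve1* without K2 (−0.0042), L1 (−0.090), L3 (−0.010) or L9 (−0.061; range −0.090 to 0.14). Library totals raised the number of genes more than 2-fold higher to 15, against 9. The resident genes that rose numbered 2, against 1, with DESeq2, library totals, log2(FPKM + 1), the letter as a covariate and the nerves named L alone, and 1 to 2 with 1 nerve left out. The count lower relative to the broad class was 5, against 3, with *Adgre1* as reference and with the L nerves alone, and 1 to 5 with 1 nerve left out. *Nae1* did not pass on TPM (log2 fold change −0.44 on log2(TPM + 1) and −0.46 on log2(TPM + 0.1)). The number of the 31 genes that rose was 15 on both TPM scales and 26 with library totals. Alternatives for the lists other than the 3 classes were chosen after seeing the data. Depth limits *Spi1*, *Fcgr1* and *Cd14*, which had at most 61 counts per nerve. No paired analysis was run, because the groups share no replicate numbers and the labels do not give the litter of each nerve. The letter that opens each nerve's name occurs in both groups and was used only in alternatives.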
